A study of Homo sapiens with 12 samples.

Results

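A list of 9 genes of nitrogen disposal and amino acid breakdown was followed through RNA-seq libraries of HuH-7, a hepatoma cell line. Members were taken by name: CPS1, OTC, ASS1, ASL and ARG1 of the urea cycle, ARG2, GLUL, TAT and HPD. All 9 of 9 have an identifier among the 57773 in the files, and 8 of 9 passed the filter on low counts that left 22984 genes for testing. HPD did not pass and is given by its counts alone. The study compared RNAs recovered with wild-type HuR and with a HuR that cannot be SUMOylated at a pair of lysines. HuR, the product of ELAVL1, binds AU-rich and U-rich RNA. SUMOylation couples a ubiquitin-like protein to a lysine.

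There were 4 groups of 3 libraries. WT RIP and WT input came from HuH-7 cells stably overexpressing wild-type HuR, and mutant RIP and mutant input from HuH-7 cells stably expressing HuR K120/182R. RIP is RNA immunoprecipitation through the V5 tag that the HuR protein carried, and input is total RNA of the same line. All 12 libraries were stranded total RNA libraries, made from 16 to 77 ng of RNA for RIP and 250 ng for input. In each comparison of RIP with input, the effects of RNA amount and of precipitation cannot be told apart. Precipitates with a control antibody, and cells lacking the V5 tag, are not analysed here. Whether each line is 1 clone, and whether replicates came from separate cultures, is not given in the sources used here, so the p-values reflect only how far these libraries spread, and that spread may be technical. Counts are per gene, so ELAVL1 values cover both added and endogenous HuR RNA.

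The urea cycle turns ammonia into urea. CPS1 makes carbamoyl phosphate in mitochondria and is the rate-limiting step, OTC joins it to ornithine, ASS1 and ASL pass through argininosuccinate in the cytosol, and ARG1 releases urea. In liver the cycle works in periportal hepatocytes, while GLUL, glutamine synthetase, captures the remaining ammonia in a thin rim of cells around the central vein. ARG2 is the mitochondrial arginase found in many tissues, TAT begins tyrosine breakdown, and HPD carries out its next step. Hepatomas often lose part of this program.

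Sequences of the 3′ ends are given first because HuR is known for binding U-rich RNA. For each gene the 30-base stretch of the 3′ UTR with the most T (U in the RNA) was taken from the canonical GENCODE transcript, which equals the hg19 genome base for base in all 9. Those of ARG2, GLUL and ASS1, which were called in the comparisons below in different directions, are shown 5′ to 3′ in the sense of the mRNA, and capitals mark bases inside TTTTT or ATTTA.
ARG2: tactgtaaatgtatttggTTTTTTgcagtt
GLUL: cttgtaattttgtatcttgatgtctttgtt
ASS1: ttgttgtgataatttgtaattgtgacttgt
These lie at chr14:68117802-68117831 (plus strand), chr1:182352269-182352298 (minus strand) and chr9:133376472-133376501 (plus strand). They hold 16 T in ARG2, 18 in GLUL and 16 in ASS1.

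The 3 stretches shown are alike in T, but those of all 9 genes are not. They run from 9 T in HPD and 10 in ASL to 24 in TAT and 26 in CPS1. The genes also differed over the whole 3′ UTR. Overlapping matches were counted, on the mRNA strand only. The 3′ UTR of GLUL is 6307 bases long, with 10 ATTTA and 35 TTTTT. That of TAT is 2484 bases long with 7 ATTTA and 48 TTTTT, that of CPS1 1122 bases with 4 and 13, and that of ARG2 788 bases with 4 and 3. The 3′ UTRs of ASS1 (253 bases), ASL (664 bases) and HPD (201 bases) hold 0 of either. That of ARG1 (421 bases) holds 1 ATTTA and 5 TTTTT, and that of OTC (364 bases) 3 ATTTA and 0 TTTTT. In a window of equal length, the last 300 bases of the transcript, 46.2% of 13888 coding genes hold ATTTA and 59.9% hold TTTTT. There, OTC, ARG1 and TAT hold ATTTA, and CPS1, ARG1, GLUL and TAT hold TTTTT. A match in letters describes the sequence and is not a binding site.

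HuH-7 expressed the listed genes at very unequal levels. Levels of different genes are compared as CPM per kilobase of the canonical transcript, where CPM are gene counts relative to the library total after TMM scaling, which aligns the typical gene between libraries. In WT input the mean was 24.8 ± 2.402 (SD, n = 3) for ASS1, 16.2 ± 2.11 for ASL, 14.4 ± 1.41 for GLUL and 7.91 ± 0.349 for ARG2. A wide gap separated these from ARG1 (0.696 ± 0.144), CPS1 (0.501 ± 0.0906), OTC (0.172 ± 0.0708), TAT (0.168 ± 0.0855) and HPD (0.117 ± 0.00543). Libraries of ASL and GLUL overlapped, as did those of ARG1 and CPS1, and those of TAT overlapped with both OTC and HPD, so the order of these neighbors is not resolved. Each OTC library lay above each HPD library, on 6 to 18 counts. In mutant input GLUL (10.7 ± 0.511) overlapped with ASS1 (12.5 ± 2.15) and ARG2 (9.91 ± 0.967), and ASL led at 15.0 ± 2.79, itself overlapping with ASS1. The transcript used for GLUL has 7554 bases, so its level per kilobase depends on the full 3′ UTR being counted.

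**Figure D1:**
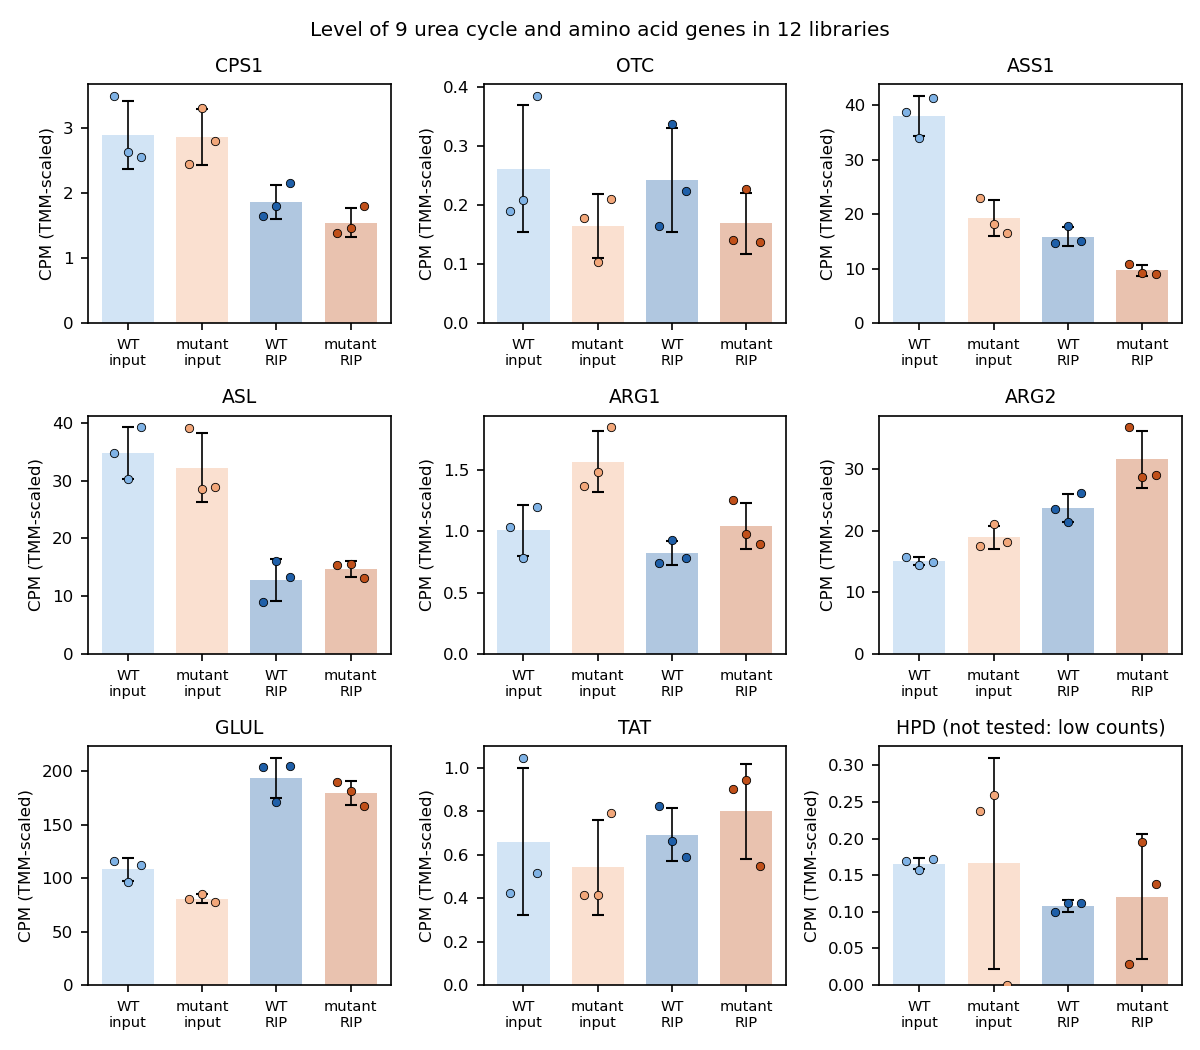
Level of each of the 9 genes in TMM-scaled CPM (y axis, linear, a separate scale for each gene) in the 4 groups (x axis). Points are the 3 libraries of a group, bars the mean and whiskers the SD. On this scale GLUL and ARG2 stand higher in RIP than in input, ASS1, ASL and CPS1 lower, and ASS1 is lower in the mutant line in both kinds of library.

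The total counts of the libraries ran from 31774994 to 73149117. Hepatocyte markers were abundant: 12 of 12 hepatocyte and hepatoma markers passed the filter and summed to between 12270 and 14200 CPM in WT input, and to between 9593 and 10660 CPM in mutant input. Their summed level was 6324 to 6569 CPM in WT RIP and 4112 to 4569 in mutant RIP, and 12 of 12 were called lower in RIP than in input in both lines; 4 of 12 were called lower in mutant input. Immune markers (5 of 8 tested) summed to 14.4 CPM at most, stromal and endothelial markers (2 of 8 tested, 1 unmatched) to 2.98 and cholangiocyte markers (4 of 5 tested) to 70.04, mostly SOX9 and EPCAM. No matched marker was at 0 in all 12 libraries, but KRT7 of cholangiocytes was at 0 in all 6 inputs, and COL1A1 of fibroblasts and KDR of endothelium were each at 0 in all libraries of 2 groups, and ACTA2 and PTPRC in those of 1 group. ELAVL1 stood at 58.2 ± 5.32 CPM (SD, n = 3) in WT input and 48.3 ± 4.18 in mutant input. Its line difference was log2 −0.27 ± 0.12 (SE; adjusted p = 0.14). Unless stated otherwise, adjusted p-values come from edgeR (quasi-likelihood F-test, Benjamini-Hochberg over all 22984 genes), a gene is called at an adjusted p under 0.05, and the error of a log2 difference is its SE. All such differences are relative to the typical gene of the fit.

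The first comparison asked how the inputs of both lines differed. ASS1 and GLUL were lower in the mutant line, and 0 members were higher. Of the 22984 genes 17.5% were called, 10.01% lower and 7.47% higher. The 2 lower members are 2 of 8, a count too small to set apart from that share. The 0 higher members are by edgeR's quasi-likelihood test. With no adjustment, 2 (ARG1 and ARG2) had a p under 0.05, and DESeq2 called 1. The median log2 difference of the 8 was −0.19, against 0.00 over all genes tested.

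ASS1, argininosuccinate synthase (ENSG00000130707, chromosome 9, 133320348 to 133376661, plus strand, hg19), showed the clearest line difference. Its level in WT input was 38.8, 34.0 and 41.2 CPM in libraries 1 to 3, and in mutant input 22.9, 18.2 and 16.5 CPM. Each mutant library lay below each WT library, and the log2 difference was −0.99 ± 0.14 (adjusted p = 1.94e-05), close to a fold size of 1.98. It stayed called under each alternative run, at −1.43 to −0.88. The annotation names 14 pseudogenes after ASS1, 10 of them with counts, and their counts came to 4.83% of those of ASS1 over the 12 libraries. How reads with several places were counted is not given in the sources used here, so ASS1 is uncertain in that measure.

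GLUL (ENSG00000135821, chromosome 1, 182347233 to 182361341, minus strand) was the most counted member. WT input libraries held 116, 96.2 and 113 CPM, and mutant input libraries 80.2, 85.01 and 77.4 CPM. The groups did not overlap, and the log2 difference was −0.42 ± 0.13 (adjusted p = 0.0207). This call was not firm: it was lost without WT input library 1 (−0.35, adjusted p = 0.141), WT input 3 (−0.40, adjusted p = 0.063), mutant input 1 (−0.41, adjusted p = 0.0579), mutant input 2 (−0.44, adjusted p = 0.0586) and mutant input 3 (−0.39, adjusted p = 0.0911). Its direction was the same in each.

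ASL, argininosuccinate lyase (ENSG00000126522, chromosome 7, 65540787 to 65559684, plus strand), which acts directly after ASS1, stood at 34.7, 30.2 and 39.3 CPM in WT input and 39.1, 28.6 and 28.9 CPM in mutant input. The ranges overlapped, and the log2 difference was −0.11 ± 0.17 (95% interval −0.46 to 0.24; adjusted p = 0.712). ASL shares 9.34% of its exon bases with a longer gene model on the same strand. Whether ASS1 and ASL differ in their line difference was not tested.

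The arginases stood higher in the mutant inputs without passing the test. ARG2 (ENSG00000081181, chromosome 14, 68086637 to 68118425, plus strand) was at 15.8, 14.5 and 15.0 CPM in WT input and 17.6, 21.04 and 18.1 CPM in mutant input, a log2 difference of 0.33 ± 0.13 (adjusted p = 0.0833). DESeq2 (0.36, adjusted p = 0.0452), TMM from protein-coding genes (0.36, adjusted p = 0.0435), a stricter filter (0.35, adjusted p = 0.0473) and removal of the GC trend (0.37, adjusted p = 0.0221) put it past the threshold, and scaling by the total count turned it to −0.12. ARG1 (ENSG00000118520, chromosome 6, 131791972 to 131905472, plus strand) was at 1.04, 0.785 and 1.20 CPM in WT input and 1.37, 1.48 and 1.85 CPM in mutant input, a log2 difference of 0.63 ± 0.28 (adjusted p = 0.121). In both genes each mutant input lay above each WT input.

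ARG2 needs care because 39.6% of its exon bases lie in VTI1B, a vesicle fusion gene on the opposite strand. The strand setting of the counting is not given in the sources used here, so reads of this stretch cannot be told apart. VTI1B was at 40.8 ± 2.21 CPM in WT input, 58.9 ± 3.63 in mutant input, 78.8 ± 5.47 in WT RIP and 98.5 ± 13.3 in mutant RIP. It was called higher in mutant input (log2 0.53 ± 0.12, adjusted p = 0.00342) and in both RIPs over input, the directions in which ARG2 stood, and its part in the values of ARG2 was not tested. With the total count as the scale its input call was lost (0.08, adjusted p = 0.787).

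CPS1 (ENSG00000021826, chromosome 2, 211342406 to 211543831, plus strand) was at 3.49, 2.62 and 2.55 CPM in WT input and 2.44, 3.30 and 2.80 CPM in mutant input. The log2 difference was −0.02 ± 0.21, and its 95% interval of −0.46 to 0.42 bounds what these libraries could show. TAT (ENSG00000198650, chromosome 16, 71599563 to 71610995, minus strand) had 20, 40 and 24 counts in WT input against 14, 16 and 30 counts in mutant input, with a log2 difference of −0.26 ± 0.41 (adjusted p = 0.717). TAT shares 8.01% of its exon bases with its antisense gene TAT-AS1.

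OTC (ENSG00000036473, chromosome X, 38211839 to 38280699, plus strand) had 9, 8 and 18 counts in WT input, 6, 4 and 8 in mutant input, 10, 24 and 16 in WT RIP and 10, 14 and 6 in mutant RIP. HPD (ENSG00000158104, chromosome 12, 122277433 to 122301502, minus strand) had 8, 6 and 8 counts in WT input, 8, 10 and 0 in mutant input, 6, 8 and 8 in WT RIP and 2, 12 and 6 in mutant RIP. A count of 0 there allows a level of up to 0.0792 CPM (3 counts, counting error only). At these counts differences between groups were not detectable. Low counts were mostly even: of all gene counts from 2 to 20 in a library, 76.5% to 84.2% were even numbers. If both reads of a pair were counted, the number of independent fragments behind these values is smaller than the counts. The limit given for a count of 0 would then be higher.

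The next comparisons asked which members were recovered with WT and with mutant HuR above or below their input. GLUL and ARG2 were higher in the precipitate of both lines. CPS1, ASS1 and ASL were lower in both relative to the typical gene, while with the total count as the scale CPS1 turned sign in both lines and ASS1 and ASL in the mutant line. Hepatocyte markers fell in the same comparisons, as given above, and their part in these values was not tested. That is 2 higher and 3 lower of 8 in the WT line, where 50.9% of all genes were called (25.6% higher and 25.4% lower), and 2 and 3 of 8 in the mutant line, where 57.0% were (29.0% higher and 28.0% lower). The shares are near the background. The median log2 enrichment of the 8 was −0.20 with WT HuR and −0.27 with mutant HuR, against 0.06 and 0.07 over all genes and −0.13 and −0.11 over coding genes.

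GLUL rose most. Its libraries went from the input values above to 204, 172 and 205 CPM in WT RIP and 190, 181 and 168 CPM in mutant RIP. No RIP library of a line overlapped with its inputs. The log2 enrichment was 0.84 ± 0.13 with WT HuR (adjusted p = 4.42e-06) and 1.15 ± 0.13 with mutant HuR (adjusted p = 2.39e-08). ARG2 was at 23.6, 21.5 and 26.1 CPM in WT RIP and 36.9, 28.8 and 29.1 CPM in mutant RIP, all above the inputs of the same line. Its enrichment was 0.65 ± 0.13 with WT HuR (adjusted p = 0.000132) and 0.74 ± 0.13 with mutant HuR (adjusted p = 2.02e-05). VTI1B, which overlaps ARG2, was enriched by 0.95 ± 0.12 and 0.74 ± 0.12. With the GC trend removed the log2 enrichment of GLUL was 0.55 and 0.78 and that of ARG2 0.39 and 0.41, each still called.

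ASS1 and ASL, the GC-rich pair of the cycle, had the lowest values, though with the GC trend removed CPS1 (−1.30) and ARG1 (−1.01) lay below both in the mutant line. In the WT line CPS1 (−0.93) then lay between ASS1 (−0.95) and ASL (−0.92). ASS1 stood at 14.7, 17.9 and 14.98 CPM in WT RIP and 10.8, 9.27 and 8.92 CPM in mutant RIP, below every input of the same line. Its log2 enrichment was −1.26 ± 0.14 with WT HuR (adjusted p = 2.75e-08) and −0.99 ± 0.14 with mutant HuR (adjusted p = 1.14e-06). ASL stood at 8.995, 16.1 and 13.4 CPM in WT RIP and 15.4, 15.6 and 13.2 CPM in mutant RIP, with a wide spread in the WT precipitates. Its log2 enrichment was −1.43 ± 0.17 (adjusted p = 4.43e-07) and −1.13 ± 0.17 (adjusted p = 7.93e-06).

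CPS1 was at 1.64, 1.79 and 2.15 CPM in WT RIP and 1.38, 1.45 and 1.79 CPM in mutant RIP. Each RIP library lay below the inputs of its line. The log2 enrichment was −0.63 ± 0.21 with WT HuR (adjusted p = 0.0149) and −0.90 ± 0.22 with mutant HuR (adjusted p = 0.00112). The WT call was lost without WT RIP 1 (−0.55, adjusted p = 0.0607), without WT input 1 (−0.44, adjusted p = 0.14) and with TMM from protein-coding genes (−0.49, adjusted p = 0.0554). With the GC trend removed both were larger in size, −0.93 and −1.30.

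The remaining members were not called. ARG1 was at 0.744, 0.93 and 0.785 CPM in WT RIP and 1.26, 0.979 and 0.894 CPM in mutant RIP. Its enrichment was −0.30 ± 0.28 (adjusted p = 0.384) and −0.58 ± 0.27 (adjusted p = 0.0729), and the second was called with the GC trend removed (−1.01, adjusted p = 0.00266). TAT had 50, 47 and 42 counts in WT RIP and 64, 58 and 24 in mutant RIP, and its enrichment was 0.08 ± 0.38 and 0.57 ± 0.39 (adjusted p = 0.873 and 0.224). For OTC the enrichment was −0.11 ± 0.59 and 0.05 ± 0.65 (adjusted p = 0.893 and 0.956).

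**Figure D2:**
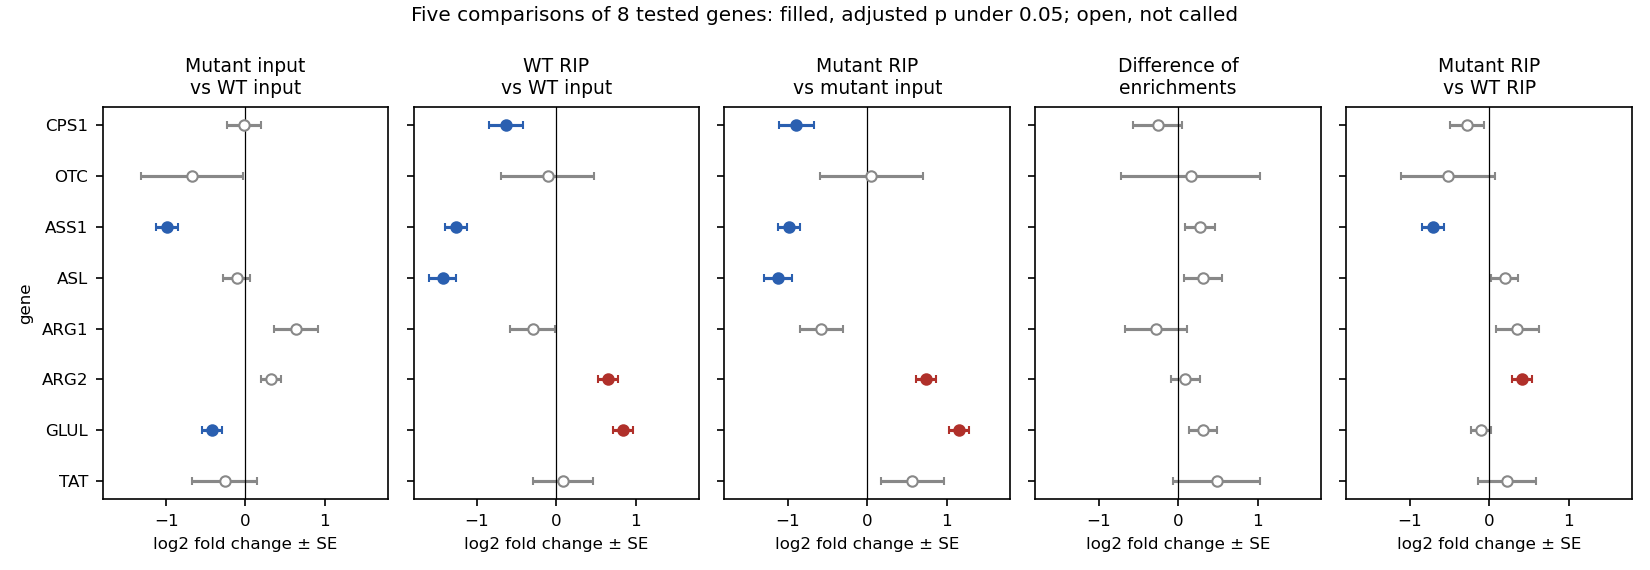
Log2 fold change with its SE (x axis) of the 8 tested genes (y axis) in each comparison, 1 panel each. Filled points were called (red higher, blue lower) and open gray points were not. On the TMM scale GLUL and ARG2 lie right of 0 and CPS1, ASS1 and ASL left of 0 in both panels of RIP over input, and no point is filled in the difference of enrichments.

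These directions are relative to the typical gene and depend on that reference for the lower members. Scaled by the total count, the median of all genes moved to 1.12 in the WT enrichment and 1.38 in the mutant enrichment. ASS1 then stood at −0.23 and 0.32, ASL at −0.42 and 0.17, CPS1 at 0.40 and 0.42 and ARG1 at 0.73 and 0.74. CPS1 and ARG1 changed sign in both lines, ASS1 and ASL in the mutant line, and OTC, never called, in the WT line (0.91). ASS1, ASL, CPS1, ARG1 and OTC lay below the median of all genes in both lines, OTC at 1.32 in the mutant line. GLUL stood at 1.89 and 2.47 and ARG2 at 1.71 and 2.07, above that median, and both stayed called. ARG1 and TAT, not called above, were called higher in both lines: ARG1 at an adjusted p of 0.0496 and 0.0396, TAT at 1.20 (adjusted p = 0.0047) and 1.87 (adjusted p = 1.372e-05). Between the inputs ASL was called lower with that scale (−0.55, adjusted p = 0.0293), where the median of all genes was −0.43. Identifiers absent from the annotation used here held 15.9% to 20.98% of the counts of the inputs and 2.65% to 3.39% of the RIP libraries, and their part in the shift was not tested.

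Recovery moved with base composition. Coding genes split into 3 equal classes of low, middle and high transcript GC content had a median log2 enrichment of 0.18, −0.06 and −0.68 with WT HuR and 0.38, −0.07 and −0.84 with mutant HuR. ASS1 (55.9% GC) and ASL (59.02%) are in the high class, GLUL (44.7%), ARG2 (45.4%), TAT (44.2%) and CPS1 (43.8%) in the middle class and OTC (40.9%) and ARG1 (42.6%) in the low class. With the trend removed ASS1 was at −0.95 and −0.53 and ASL at −0.92 and −0.43, each still called. GLUL and CPS1 differ by less than 1 percentage point in GC and lay on opposite sides of 0 relative to the typical gene. With the total count as the scale both lay above 0, CPS1 at 0.40 and 0.42.

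**Figure D3:**
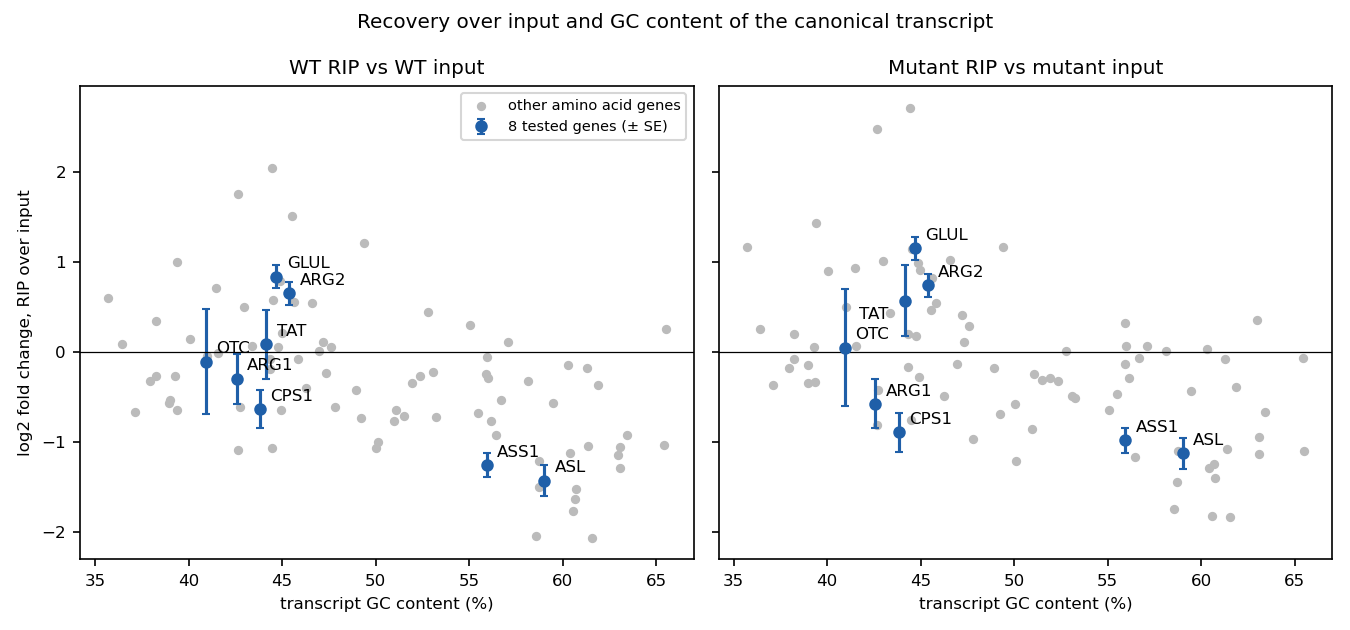
Log2 fold change of RIP over input (y axis) against the GC content of the canonical transcript in percent (x axis), with WT HuR on the left and mutant HuR on the right. Blue points are the 8 tested genes with their SE and gray points the other amino acid genes tested. ASS1 and ASL sit among the GC-rich genes at the lower right. GLUL and CPS1 have nearly the same GC content and, on this TMM scale, opposite signs.

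The difference of these enrichments between the lines was tested as an interaction. Mutation and line coincide in this design, so an effect of the mutation cannot be told apart from other differences between the lines. No member was called: edgeR's quasi-likelihood test gave 0 of 8, DESeq2 gave 0, and 0 had an unadjusted p under 0.05, where 0.0653% of all genes (15 of 22984) were called. The median of the 8 was 0.22, against 0.00 over all genes. The difference, mutant minus WT, was 0.32 ± 0.18 for GLUL (95% interval −0.05 to 0.68; adjusted p = 0.468), 0.31 ± 0.24 for ASL (−0.19 to 0.81), 0.28 ± 0.19 for ASS1 (−0.12 to 0.67) and 0.09 ± 0.18 for ARG2 (−0.28 to 0.46). For CPS1 it was −0.26 ± 0.30 (−0.89 to 0.37), for ARG1 −0.28 ± 0.39 (−1.08 to 0.52), for TAT 0.49 ± 0.55 (−0.64 to 1.62) and for OTC 0.16 ± 0.88 (−1.65 to 1.96). In simulated counts of this design (21500 genes tested), this comparison recovered 50% of the genes given a log2 change of 1 and 2% of those given 0.5. Changed genes had a mean above 1 CPM, and all groups had equal means before the change. OTC and TAT lie below that level, so these rates do not cover them. At these rates, differences as small as those of the other members would mostly be missed.

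The last comparison set the precipitates side by side. ASS1 was lower in mutant RIP than in WT RIP (−0.71 ± 0.14, adjusted p = 0.000615) and ARG2 higher (0.41 ± 0.13, adjusted p = 0.0208). That is 1 lower and 1 higher of 8, where 19.6% of all genes were called (9.76% lower and 9.87% higher). Neither gene's libraries overlapped between the precipitates. The ARG2 call was lost without WT RIP 1 (0.41, adjusted p = 0.0645), without WT RIP 2 (0.34, adjusted p = 0.0917), without mutant RIP 1 (0.28, adjusted p = 0.155) and with the total count as the scale (0.24, adjusted p = 0.494). GLUL, lower in mutant input, stood at −0.11 ± 0.12 between the precipitates (95% interval −0.37 to 0.15; adjusted p = 0.608).

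Direct partners of the cycle were read from a list of 14 genes, of which 12 were tested. NAGS, which makes the activator that CPS1 requires, showed the largest rise of that list in mutant input. It is below the level set for named genes and was chosen after its values were seen. It was at 1.48, 1.91 and 1.54 CPM in WT input and 5.78, 3.90 and 3.72 CPM in mutant input, a log2 difference of 1.44 ± 0.22 (adjusted p = 5.85e-05), and in WT RIP at 0.86 ± 0.0573 against 2.80 ± 0.362 CPM in mutant RIP (1.70 ± 0.22, adjusted p = 8.16e-06). SLC25A13, the mitochondrial carrier that supplies aspartate to ASS1, was lower in mutant input, at 38.6 ± 3.26 against 58.9 ± 5.26 CPM (−0.61 ± 0.11, adjusted p = 0.000574). The ornithine carrier SLC25A15 (−0.18 ± 0.15, adjusted p = 0.453) and ornithine aminotransferase OAT (−0.30 ± 0.12, adjusted p = 0.0778) were not called. SLC25A13, SLC25A15 and OAT were chosen for their role and with their values seen. With the total count, SLC25A15 (−0.64, adjusted p = 0.0165) and OAT (−0.75, adjusted p = 0.00212) were called lower, and OAT also without WT input 3 (−0.37, adjusted p = 0.0474). In all 1 of these 12 was higher and 1 lower in mutant input, where 7.47% and 10.01% of all genes were.

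In the precipitates, relative to the typical gene, 1 of the same 12 partners was higher and 7 lower with WT HuR (median −0.76), where 25.6% and 25.4% of all genes were. With mutant HuR 2 were higher and 7 lower (median −0.58), where 29.0% and 28.0% were. Of the 14017 coding genes tested, 3090 were higher and 4770 lower with WT HuR, and 3732 and 5057 with mutant HuR. ODC1, the ornithine decarboxylase that opens polyamine synthesis, was the higher partner in the WT line. It went from 252, 244 and 246 CPM in WT input to 651, 472 and 593 CPM in WT RIP, a log2 enrichment of 1.21 ± 0.15 (adjusted p = 3.07e-07), and showed 1.16 ± 0.15 in the mutant line. PYCR1, which makes proline, was at −1.30 ± 0.14 with WT HuR and shares exon bases with neighbors on both strands; with the total count it was not called (−0.25, adjusted p = 0.256). NAGS was below input in both lines (−0.93 ± 0.23, adjusted p = 0.00168; −0.67 ± 0.21, adjusted p = 0.00783). The WT value was −0.14 and not called with the GC trend removed, the mutant value then turned to 0.37, and the mutant call was lost without mutant input 1 (−0.45, adjusted p = 0.0949). With the total count NAGS was at 0.14 in the WT line (adjusted p = 0.671) and was called higher in the mutant line (0.62, adjusted p = 0.031).

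Beyond the cycle, 86 other amino acid genes were listed, counting these partners, and 81 tested. In mutant input 9 were higher and 17 lower (median −0.18), where 7.47% of all genes were higher and 10.01% lower. Of the 14017 coding genes tested, 1249 were higher and 1993 lower there. Branched chain catabolism held 2 higher and 7 lower of 17. ACADSB, a dehydrogenase of isoleucine breakdown, was at −0.88 ± 0.12 and BCKDHB, a subunit of the branched chain ketoacid dehydrogenase, at −0.73 ± 0.14. ALDH7A1 of lysine breakdown (−0.95 ± 0.12) and GLDC, the glycine decarboxylase (−0.86 ± 0.14), also fell, while ACMSD of tryptophan breakdown (1.38 ± 0.19), AGXT2, a mitochondrial aminotransferase (0.86 ± 0.15), AFMID, which follows the first step of tryptophan breakdown (0.63 ± 0.13), and PCBD1, which recycles the cofactor of phenylalanine hydroxylase (0.61 ± 0.12), rose. With the total count AGXT2 (0.42, adjusted p = 0.159), AFMID (0.19, adjusted p = 0.52) and PCBD1 (0.17, adjusted p = 0.558) were not called.

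Tyrosine and phenylalanine genes, the pathway of TAT and HPD, gave 1 higher and 2 lower of 7 in mutant input. The counts higher and lower between inputs, where the shares over all genes were 7.47% and 10.01%, were 2 and 2 of 13 for glutamine, glutamate and transaminase genes, 2 and 1 of 6 for tryptophan, 0 and 0 of 3 for histidine, 1 and 1 of 9 for methionine and cysteine, 0 and 2 of 10 for serine, glycine and threonine and 0 and 1 of 4 for lysine.

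Among the same 81 genes 11 were higher and 35 lower with WT HuR (median −0.32), where 25.6% and 25.4% of all genes were. With mutant HuR 18 were higher and 29 lower (median −0.17), where 29.0% and 28.0% were. Coding genes alone were called lower more often than higher. Of 14017 tested, 3090 were higher and 4770 lower with WT HuR, and 3732 and 5057 with mutant HuR. PCCA, a propionyl-CoA carboxylase subunit, led in both lines. It went from 9.97, 7.90 and 9.45 CPM in WT input to 29.2, 41.2 and 42.9 CPM in WT RIP, an enrichment of 2.05 ± 0.15 (adjusted p = 8.19e-11), and reached 2.72 ± 0.16 with mutant HuR. ACMSD (1.52 ± 0.18) with WT HuR, and AASS of lysine breakdown (1.44 ± 0.14) and HIBCH of valine breakdown (1.17 ± 0.13) with mutant HuR, were the other high ones. With mutant HuR no tested tryptophan gene, ACMSD among them, exceeded 0.46.

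At a mean log2 CPM of at least 2, the low end held BCKDK, the kinase of the branched chain ketoacid dehydrogenase (−1.77 ± 0.16 with WT HuR and −1.82 ± 0.16 with mutant HuR), and CBS, cystathionine beta-synthase (−1.50 ± 0.16 and −1.44 ± 0.16). The mutant value of CBS was −0.14 with the total count (adjusted p = 0.554). BCKDHA (−1.64 ± 0.20 and −1.24 ± 0.20) is uncertain, since 73.7% of its exon bases lie in another gene on the same strand, and BCAT2, a branched chain aminotransferase, was at −1.30 ± 0.18 with mutant HuR. Neither BCKDHA (0.0613, adjusted p = 0.82) nor BCAT2 (0.0012, adjusted p = 0.996) was called in the mutant line with that scale. None of the 81 was called in the difference of enrichments by edgeR (16 higher and 1 lower at an unadjusted p under 0.05), while DESeq2 called 6 higher and 1 lower. Between the precipitates 11 were higher and 6 lower in the mutant, where 9.87% and 9.76% of all genes were. At a mean log2 CPM of at least 2, AGXT2 (1.21 ± 0.15), the aminotransferase BCAT1 (0.82 ± 0.12), the glutamine carrier SLC1A5 (0.59 ± 0.12) and the histidase HAL (0.57 ± 0.18) were the highest, and GPT2, an alanine aminotransferase (−0.51 ± 0.16), ACADSB (−0.46 ± 0.12), GLDC (−0.45 ± 0.14) and DLD, a subunit shared by several dehydrogenase complexes (−0.43 ± 0.12), the lowest. Calls were lost with the total count for SLC1A5 (0.41, adjusted p = 0.166) and HAL (0.38, adjusted p = 0.285). They were also lost leaving out WT RIP 2, WT RIP 3, mutant RIP 1 or mutant RIP 3 for HAL (adjusted p up to 0.178), any of the 3 WT RIP libraries, mutant RIP 2 or mutant RIP 3 for GPT2 (up to 0.119), WT RIP 2, mutant RIP 1 or mutant RIP 3 for GLDC (up to 0.09997), and mutant RIP 1 or 2 for DLD (up to 0.0651).

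**Figure D4:**
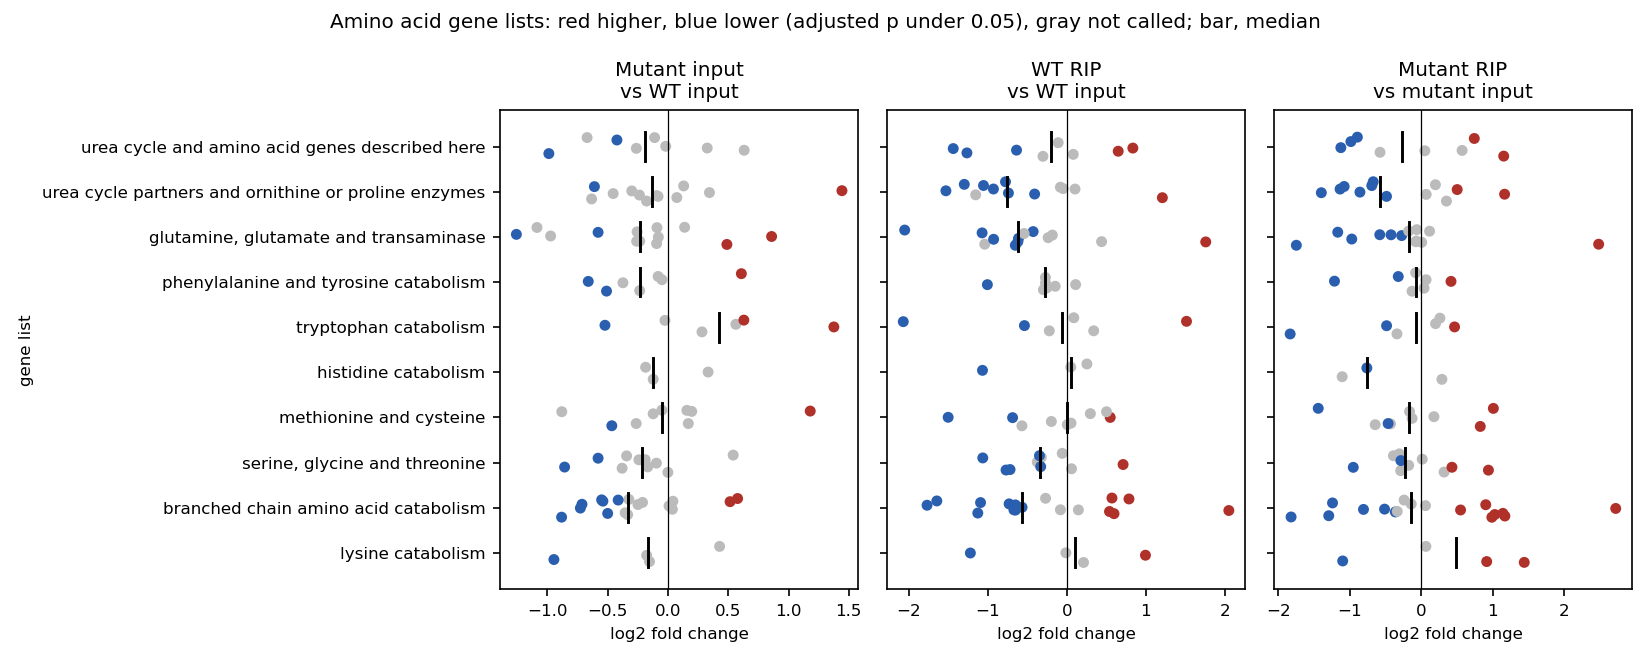
Log2 fold change (x axis) of each tested gene, 1 point per gene, in the genes described here and in 9 lists of other amino acid genes (y axis), for mutant over WT input, WT RIP over input and mutant RIP over input. Red and blue points were called higher and lower, gray points were not, and black bars are medians; PCCA is the farthest right in both panels of RIP over input, and NAGS in the panel of the inputs.

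The genes whose pattern over the 12 libraries was most like a member's were found by Pearson's r of log2 CPM among 9646 coding genes, as a description: the libraries share 4 groups, so the r mostly reflects the group means. They were RFC2 (0.987) and RAB11FIP4 (0.984) for ASS1, DDX54 (0.991) and NDUFV1 (0.99) for ASL, WDR27 (0.98) and ACTR3B (0.977) for ARG2, and EPB41L2 (0.988) and XBP1 (0.984) for GLUL. The other members were below the level set for this search.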

How the data were processed

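Gene counts of 12 libraries were analysed. The authors deposited raw counts per Ensembl gene, 1 column per library and not pooled, per the file headers. Per the submitters' processing notes, bcl2fastq 2.20.0.422, cutadapt, STAR 2.4.0j, featureCounts 1.6.4 and hg19 were used. The annotation release and strand setting are not given in the sources used here. Identifiers were matched to GENCODE release 44 on GRCh37 (55538 of 57773 matched), which gives all positions. Unmatched identifiers stayed in the fit and took 2.65% to 20.98% of the counts. Replicates differed by more than sampling noise (chi-square per degree of freedom at least 14.97).

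The low-count filter was edgeR's filterByExpr with a minimum count of 10 and a minimum total of 15. All libraries entered 1 robust quasi-likelihood fit (edgeR 4.0.16, R 4.3.3) with 4 group coefficients, TMM factors and 8 residual degrees of freedom. SEs were derived from the F statistic. DESeq2 1.42.0 was an alternative. Other alternatives were DESeq2 size factors, the total count, TMM from coding genes, omitting the low-count filter or raising it to 50 counts in 3 libraries, a fit on just the compared groups, a replicate block (over all groups, or within line), removal of each library's GC trend (lowess span 0.3), and leaving out each library. Simulated counts with 200 changed genes were used to test the script.

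Members and lists were chosen with earlier results of these data known. Named genes were all members, ELAVL1, and the 4 highest and 4 lowest called genes of the other amino acid lists per comparison, whose mean log2 CPM reached 2 with no overlap of libraries in comparisons of 2 groups. Some genes that met this rule, and some sequences, are not reported here. Marker lists were hepatocyte, immune, stromal and endothelial, and cholangiocyte. Figures used Python 3.11.15 and matplotlib 3.10.9.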

Additional observations from a re-analysis of the deposited data

How the results depend on the processing

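Of 40 log2 differences of the 8 tested members, all 40 kept sign and side of the threshold with no filter and with the replicate block, and all 24 with the block within line. With DESeq2 size factors all 40 kept their side of the threshold and 1, CPS1 between inputs, turned sign (0.02). Same-numbered libraries deviated together in some pairs only (r from −0.52 to 0.61 over 18 pairs). For RIP and input of a line r ran from −0.17 to 0.42 over 6 pairs. Whether the numbers pair the samples cannot be settled from these values. With the replicate block the genes called in the difference of enrichments were 23, and with the replicate block within line 105, against 15.

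That count was 105 with the total count, 185 with no filter, 1 with 50 counts in 3 libraries, 51 with the GC trend removed, 389 with DESeq2 and 0 to 75 leaving out 1 library (0 without WT RIP 1 or mutant RIP 3, 75 without WT input 3). For the inputs, 7208 genes were called with the total count against 4017, and 2193 to 3757 leaving out 1 library (2193 without WT input 1). Between the precipitates it was 2796 to 4308 against 4512 (2796 without WT RIP 1, 2951 without mutant RIP 2). Members higher between inputs became 1 (ARG2) with TMM from coding genes, the stricter filter, the GC trend removed and DESeq2. Members lower there were 1 to 2 leaving out 1 library. With the total count, members higher and lower became 4 and 0 in both enrichments, and members higher between precipitates 0. Leaving out 1 library gave 0 to 1 there, and 2 to 3 lower members in the WT enrichment.

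Named differences that turned sign with the total count, in WT and mutant enrichment, were CPS1 (0.40, 0.42), ARG1 (0.73, 0.74), ELAVL1 (0.29, 0.49), NAGS (0.14, 0.62) and SLC25A15 (0.65, 0.83); OAT (1.002) and SLC25A13 (0.97) in the WT line; ASS1 (0.32), ASL (0.17), BCAT2 (0.0012) and BCKDHA (0.0613) in the mutant line; and, without being called, OTC in the WT line (0.91), ARG2 between inputs (−0.12) and CPS1 (0.02), ARG1 (0.0097), ELAVL1 (0.20), SLC25A15 (0.18) and VTI1B (0.06) in the difference of enrichments. NAGS in the mutant line was 0.37 with the GC trend removed. That scale moves the median of all genes by itself; other causes were not tested. Depth limits OTC, HPD and TAT.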
